A study of Homo sapiens with 4 samples.

Results

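Expression of 9 genes of the epithelial-mesenchymal transition (EMT), out of 58302 listed, was followed in T24, an established human bladder carcinoma cell line. They were taken by symbol: the transcriptional repressors ZEB1, ZEB2, SNAI1, SNAI2 and TWIST1, the cadherins CDH1 and CDH2, the receptor tyrosine kinase AXL and the matrix protein gene TGFBI. The groups were 2 libraries of T24 labelled control and 2 of T24 labelled IGF2BP3 knockout, the latter from a stable line made with CRISPR/Cas9. PolyA RNA was sequenced in all 4. Whether the knockout line was 1 clone, and whether replicates were grown separately, is not given in the sources used here, so any p-value measures only the spread between these libraries, which may be technical.

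In EMT, epithelial cells loosen their junctions and take on a migratory, fibroblast-like state. The SNAIL, ZEB and TWIST proteins bind E-box sequences and repress epithelial genes, with E-cadherin (CDH1) as their textbook target, while N-cadherin (CDH2) is often gained. TGF-beta signalling is a strong inducer of the programme, TGFBI is one of its secreted targets, and AXL is a receptor commonly high in mesenchymal-like carcinoma cells. IGF2BP3 is an RNA-binding protein that binds many messenger RNAs, among them transcripts carrying N6-methyladenosine, and the comparison addresses how expression in bladder cancer cells differs when it is lost.

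The deposited values were FPKM, read fragments per kilobase of transcript, relative to the reads of each library. The steps in these values imply a base of 811823 to 2162179 reads per library, with knockout 1 the shallowest. Reads recovered as whole numbers made up 94.1 to 94.6% of this base. Of the 11463 genes with a mean of at least 1 FPKM, 49.4% were listed at 0 in at least 1 library, so a listed 0 does not show that a gene was silent. IGF2BP3 itself had 2.94 and 21.5 FPKM in control cells and 0 and 0.190 in knockout cells, the order its labels give. Its log2 fold change of −3.89 ± 2.83 (SE) did not pass the test used below (adjusted p = 0.955 in limma). A gene that does not pass here may thus still differ between the groups. Of 17 urothelial markers, 11 were at 0 in all 4 libraries, among them FOXA1, TP63 and all 4 uroplakins listed (UPK1A, UPK1B, UPK2 and UPK3A), and the epithelial keratins KRT8 and KRT18 were above 0 in every library. The summed urothelial markers came to 440 and 582 FPKM in control cells and 1545 and 1163 in knockout cells, mostly from these keratins. Their part in the results below was not tested. All 6 leukocyte markers were at 0 everywhere, and the 6 fibroblast and 6 endothelial markers summed to at most 3.95 and 4.43 FPKM in any library.

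No member passed the test between knockout and control. Only 4 of the 9 (ZEB1, ZEB2, CDH2 and AXL) reached a mean of 1 FPKM and could be tested, and 0 of these 4 passed an adjusted p of 0.05 in limma, where 0.0872% of all genes tested did. At an unadjusted p under 0.05 the count was also 0, against 3.91% of all genes, and limma-voom on recovered reads called 0 as well. SNAI1, SNAI2, TWIST1 and CDH1 were listed at 0 in all 4 libraries. AXL alone was above 0 in every library. By library, 2 of the 9 members were above 0 in control 1, 3 in control 2, 3 in knockout 1 and 4 in knockout 2.

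**Figure D1:**
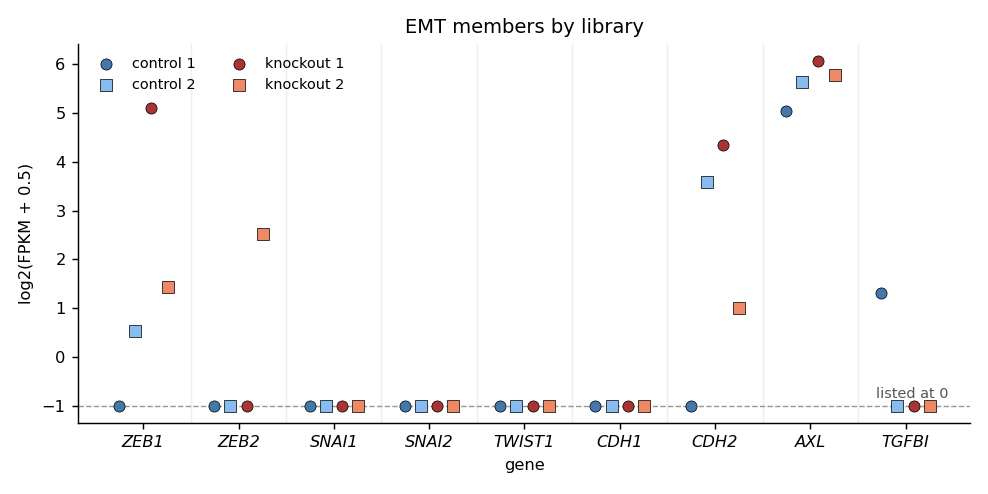
Level of each of the 9 genes in each library, as log2(FPKM + 0.5) on the vertical axis, with circles for replicate 1 and squares for replicate 2 of the control (blue) and knockout (red and orange) groups. The dashed line marks a listed 0, where SNAI1, SNAI2, TWIST1 and CDH1 sit in all 4 libraries; the 4 AXL points lie close together between 32.3 and 66.3 FPKM.

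ZEB1 encodes a zinc-finger and homeodomain repressor of epithelial genes. It lies on the plus strand of chromosome 10 from 31318495 to 31529814 (hg38, GENCODE 29). Its FPKM was 0 in control 1, 0.938 in control 2, 33.8 in knockout 1 and 2.19 in knockout 2. Behind these values stood 0, 11, 172 and 17 reads. Knockout 1 held most of the signal, and both knockouts lay above both controls. The knockouts differed from each other 15.5-fold, and the exact 95% counting intervals, 28.9 to 39.3 FPKM in knockout 1 and 1.27 to 3.50 in knockout 2, did not meet. The interval of knockout 2 overlapped that of control 2 (0.468 to 1.68). These intervals cover counting error only. The fitted log2 fold change was 3.50 ± 2.80 (SE, n = 2 and 2) on the log2(FPKM + 0.5) scale, with an adjusted p of 0.955 in limma. It was 1.66 without knockout 1 and 5.34 without knockout 2.

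ZEB1-AS1, an antisense gene that overlaps ZEB1 in the annotation, was listed at 14.7 FPKM in control 2 and at 0 in the other libraries. Whether counting used the strand is not given in the sources used here, so reads of the pair cannot be told apart.

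ZEB2, the paralog of ZEB1 on the minus strand of chromosome 2 (144364364 to 144524583), was seen in a single library. It was listed at 0 in both controls and in knockout 1, and at 5.22 FPKM in knockout 2, from 62 reads (exact 95% interval 4.00 to 6.69 FPKM). At these depths a count of 0 allows up to 0.145 FPKM in control 1, 0.167 in control 2 and 0.386 in knockout 1, taking 3 reads as the limit. The value in knockout 2 thus exceeded what counting error allows in knockout 1, its own replicate, as well as in the controls. Its groups overlapped, and the fitted log2 fold change of 1.76 ± 2.39 (SE) had an adjusted p of 0.955 in limma; its size depends on the pseudocount. It was 3.52 without knockout 1 and has no value without knockout 2.

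SNAI1 and SNAI2 encode the zinc-finger repressors SNAIL and SLUG, and TWIST1 encodes a basic helix-loop-helix factor. All 3 were listed at 0 throughout, with 0 reads in the 4 libraries. SNAI1 lies on chromosome 20 (49982999 to 49988886, plus strand). By counting error alone it could have stood at up to 0.823 FPKM in control 1 and 2.19 in knockout 1 without yielding a read. For SNAI2 (chromosome 8, 48917604 to 48921740, minus strand) these limits were 0.491 and 1.31 FPKM. They were 0.833 and 2.22 for TWIST1 (chromosome 7, 19020991 to 19117672, minus strand), whose transcript, like that of SNAI1, is short. No difference between groups was detectable at this depth for these 3 genes. The limits use the longest GENCODE transcript as the length, which no value above 0 could check here. They cover counting error only. CDH2, for example, was listed at 0 in control 1 and at 11.5 FPKM in control 2, so a listed 0 can stand beside a far higher replicate.

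CDH1, the E-cadherin gene on the plus strand of chromosome 16 (68737225 to 68835548), had 0 FPKM in all 4 libraries, from 0 reads. The limits that 0 reads allow were 0.284 FPKM in control 1, 0.328 in control 2, 0.756 in knockout 1 and 0.495 in knockout 2, again with an unchecked transcript length. E-cadherin transcript was therefore not detected in either group, and no gain in the knockout was seen. These limits cover counting error only and not the spread between replicates.

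CDH2, the N-cadherin gene on the minus strand of chromosome 18 (27950966 to 28177446), had 0 FPKM in control 1, 11.5 in control 2, 19.9 in knockout 1 and 1.49 in knockout 2, from 0, 93, 70 and 8 reads. Each group held 1 high and 1 low library, and the groups overlapped. The knockouts differed 13.4-fold. The exact 95% counting interval of control 2 (9.26 to 14.1 FPKM) lay apart from that of knockout 2 (0.643 to 2.93) and just below that of knockout 1 (15.5 to 25.1). The fitted log2 fold change of 1.38 ± 2.63 (SE) did not pass (adjusted p = 0.976 in limma), and its sign turned to −0.91 without control 1 and to −0.30 without knockout 1. Without control 2 it was 3.67, and without knockout 2 it was 3.06.

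AXL encodes a receptor tyrosine kinase of the TAM family (TYRO3, AXL and MERTK), whose ligands are the vitamin K-dependent proteins GAS6 and PROS1. It lies on the plus strand of chromosome 19 from 41219203 to 41261766. AXL had 32.3 and 48.9 FPKM in control cells and 66.3 and 54.5 in knockout cells, from 331, 433, 255 and 320 reads. Both knockouts were above both controls. The step between control 2 and knockout 2 was the smallest, and their exact 95% counting intervals overlapped (44.4 to 53.7 and 48.7 to 60.8 FPKM). The controls differed 1.51-fold from each other and the knockouts 1.22-fold, while the ratio of the group means, 60.4 over 40.6 FPKM, was 1.49. The difference was thus about as large as that between the 2 controls.

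The fitted log2 fold change of AXL was 0.59 ± 0.96 (SE), with a 95% interval of −1.29 to 2.47 and an adjusted p of 0.960 in limma. Its own replicates had an SD of 0.33 on the log2 scale, but the fit takes the spread from all genes of like level. An exact two-sided permutation test gave p = 0.333, the smallest that 2 libraries against 2 can give. The fold change was 0.30 without control 1 and 0.88 without control 2. An antisense gene overlapping AXL (ENSG00000269652) was listed at 31.0 FPKM in knockout 2 and at 0 in the other 3 libraries.

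TGFBI, which encodes a secreted matrix protein induced by TGF-beta, lies on the plus strand of chromosome 5 (136028895 to 136063818). It stood at 1.98 FPKM in control 1 from 20 reads (exact 95% interval 1.21 to 3.06 FPKM) and at 0 in control 2 and both knockouts. With 0 reads, counting error alone allowed up to 0.344 FPKM in control 2, 0.793 in knockout 1 and 0.519 in knockout 2. The controls thus differed from each other by more than counting error. Its mean missed 1 FPKM, so it was not tested.

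Ordered by mean FPKM over the 4 libraries, a per-length scale, AXL came first at 50.5, followed by ZEB1 at 9.23, CDH2 at 8.22, ZEB2 at 1.30 and TGFBI at 0.496. AXL exceeded every other member in each of the 4 libraries, and 88.6% of the genes tested had a lower mean. Taken across libraries, the range of AXL met that of ZEB1 only through ZEB1 in knockout 1 (33.8 FPKM) and AXL in control 1 (32.3). The ranges of the other neighbours in this order overlapped, so these did not differ beyond the spread between libraries.

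ZEB1 and AXL were the 2 of the 4 tested members whose groups did not overlap, both with the knockout higher, where 12.1% of all genes tested separated in that direction and 14.4% with the knockout lower. With so few genes this share is a description. ZEB1 and ZEB2 lay below 1 FPKM in both controls and reached a mean of 1 FPKM only through the knockouts. TGFBI, above 0 in control 1 alone, missed this mean. Which members could separate, and in which direction, is thus partly set by the filter. E-boxes are the sites that ZEB and SNAIL proteins bind. The sequences before the starts of AXL and ZEB1 are shown because these 2 members separate the groups, a choice with the same limit. Both come from RefSeq (GRCh38.p14), on the plus strand, and end before the first base of the gene in RefSeq and in GENCODE 29. Capitals mark the E-box CAGGTG and the GC box GGGCGG, the core recognised by SP1 family factors, each searched on both strands.
AXL, chr19:41218973-41219202: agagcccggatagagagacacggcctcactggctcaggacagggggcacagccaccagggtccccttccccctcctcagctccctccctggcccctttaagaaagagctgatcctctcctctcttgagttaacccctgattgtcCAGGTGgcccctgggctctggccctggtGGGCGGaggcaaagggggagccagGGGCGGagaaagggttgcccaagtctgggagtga
ZEB1, chr10:31318167-31318416: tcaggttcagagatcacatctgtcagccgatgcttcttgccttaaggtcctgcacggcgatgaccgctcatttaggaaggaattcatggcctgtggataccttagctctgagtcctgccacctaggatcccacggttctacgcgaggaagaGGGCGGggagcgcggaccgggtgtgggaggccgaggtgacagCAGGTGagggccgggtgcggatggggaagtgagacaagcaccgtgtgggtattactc

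Each stretch holds 1 E-box. The AXL stretch has 2 GC boxes and the ZEB1 stretch has 1. Among RefSeq windows of 300 bases (250 before and 50 after a start), 20.6% of 35116 held this E-box, 45.0% the GC box and 7.71% the AP-1 motif TGANTCA, which neither stretch has. The count by member used windows of 5 members (AXL, CDH2, TGFBI, ZEB1 and ZEB2), 13 in all. Of these, 7 were of ZEB1, 2 each of AXL and CDH2 and 1 each of TGFBI and ZEB2. Windows on chromosome 8, where SNAI2 lies, were left out of this count but kept in the share over all windows. The E-box was in 3 of the 13 (23.1%), 1 of AXL and 2 of ZEB1, which is near the share over all windows. A match describes the letters and does not show binding.

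The other genes of the AXL system had higher fitted values in the knockout in every case, and none passed. MERTK had 1.64 and 3.11 FPKM in controls against 19.9 and 4.89 in knockouts, from 14, 23, 64 and 24 reads. TYRO3 had 0.225 and 0.456 against 1.35 and 5.99, from 4 to 61 reads. Both receptors were higher in each knockout than in either control, as AXL was. The ligand PROS1 had 0.779 and 3.30 FPKM against 94.8 and 12.0, a fitted log2 fold change of 3.97 ± 1.96 (SE) whose unadjusted p of 0.0425 became 0.955 after adjustment over all genes in limma. The ligand GAS6 overlapped between groups, at 0.350 and 4.65 against 1.86 and 25.6. Of the 5 genes, 4 did not overlap with the knockout higher (background 12.1%), and control 1 was the lowest library for all 5. TYRO3, 1 of these 4, reached a mean of 1 FPKM only through the knockouts (3.67 against 0.341 in controls). Its place in this count is thus partly set by the filter. Knockout 1 was highest for AXL, MERTK and PROS1, and knockout 2 for TYRO3 and GAS6, so the knockouts did not share 1 order. The list is small and its genes were taken because they bind AXL or resemble it.

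**Figure D2:**
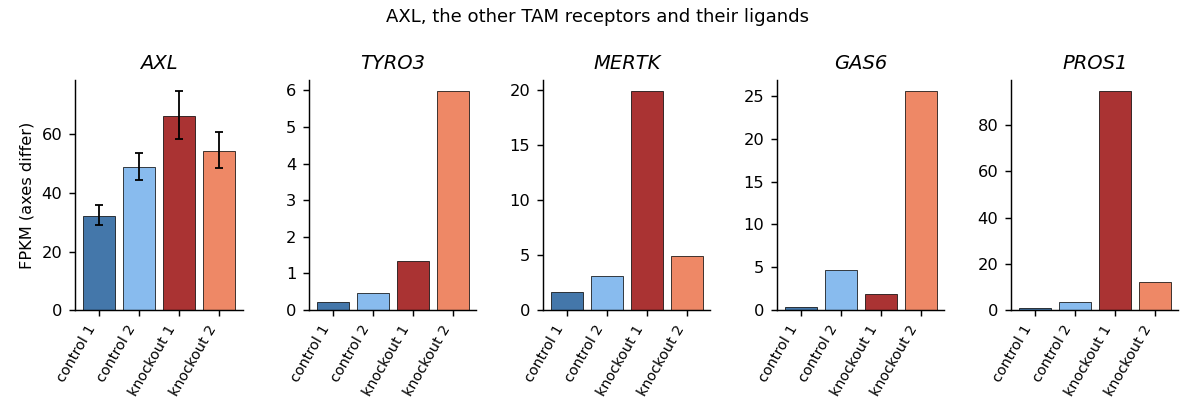
FPKM of AXL, the related receptors TYRO3 and MERTK, and the ligands GAS6 and PROS1 in each of the 4 libraries, each panel on its own axis from 0. Error bars on AXL are exact 95% counting intervals; control 1 is the lowest bar in every panel, and the knockouts are above both controls in all panels except that of GAS6.

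Beyond the 9 members, 171 genes in 10 lists were read from the same fit, of which 112 could be tested and 0 passed in either direction (limma, smallest adjusted p of 0.955). At an unadjusted p under 0.05 there were 3 (ETS1 and PROS1 higher, ID3 lower), against 3.91% of all genes. Limma-voom also passed 0, with 4 of 104 list genes at that unadjusted level against 272 of 11039 over all. Over all genes tested the median log2 fold change was −0.08. It moved to −0.38 or 0.48 when control 1 or control 2 was left out, and to 0.20 or −0.75 when knockout 1 or knockout 2 was, and list medians are to be read beside the value of the same fit.

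Further EMT transcription factors had 9 of 18 genes tested, with a median log2 fold change of −0.79. This median was −1.39 without knockout 2 and −0.19 without knockout 1. TWIST2, SNAI3, FOXQ1, GSC, KLF8 and ID2 were at 0 in all 4 libraries, as the SNAIL and TWIST members were. ETS1, an ETS-family activator, had 11.1 and 24.8 FPKM in controls against 102 and 67.5 in knockouts, a log2 fold change of 2.29 ± 1.06 (SE) with an adjusted p of 0.955 in limma. Groups of ETS1 did not overlap, and it was the 1 gene of the 9 tested with the knockout higher. The knockout was lower without overlap for 3, against 12.1% (higher) and 14.4% (lower) of all genes. These were TCF3, TCF12 and SOX9, the last 2 named after their values were seen. TCF12 had 51.5 and 14.5 FPKM in controls against 0.406 and 1.33 in knockouts, and none passed. ID1, an inhibitor of basic helix-loop-helix factors, had 185 and 127 against 155 and 181. TCF3, which encodes the E-box-binding E2A proteins, had 53.8 and 53.7 against 25.2 and 45.7. ID3, related to ID1, had 112 and 92.3 against 2.95 and 106, so its low value rests on knockout 1 alone.

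The corepressors and chromatin partners through which these repressors act were present in both groups. All 14 were tested, the median log2 fold change was −0.41, and no member separated the groups, against 12.1% (knockout higher) and 14.4% (lower) of all genes. CTBP1, a corepressor that ZEB proteins recruit, had 33.6 and 72.6 FPKM in controls against 51.0 and 62.2 in knockouts. EHMT2, a histone H3 lysine methyltransferase, had 41.6 and 46.6 against 10.4 and 89.2, and DNMT1, the maintenance DNA methyltransferase, had 75.4 and 108 against 26.4 and 93.6. Knockout 1 was the lowest library for EHMT2 and DNMT1. The list median was 0.30 without knockout 1, where that of all genes was 0.20.

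Regulators of SNAIL protein stability (9 of 9 tested) had a median of −0.38. CTDSP1, a phosphatase that stabilises SNAIL, had 45.1 and 39.9 FPKM in controls against 4.67 and 24.8 in knockouts. BTRC, the F-box protein that targets phosphorylated SNAIL, had 8.82 and 10.7 against 46.6 and 15.5. FBXL14, another F-box protein of SNAIL, had 49.1 and 14.9 against 0 and 17.6, and the kinase PAK1 had 19.3 and 26.7 against 19.8 and 15.3. Without overlap, 2 of the 9 lay higher and 1 lower in the knockout, against 12.1% and 14.4% of all genes. BTRC was among the higher and CTDSP1 was the lower, and neither passed.

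The catenins that hold cadherins to actin were present although CDH1 was not detected. All 12 genes of this list were tested, with a median of −0.09, close to that of all genes. CTNNA1, alpha-catenin, had 122 and 88.6 FPKM in controls against 18.6 and 107 in knockouts, and CTNNAL1, a related protein, had 59.4 and 79.7 against 84.0 and 30.7. JUP, plakoglobin, had 67.7 and 41.9 against 29.6 and 39.2, below the controls in both knockouts. VCL, vinculin, had 27.5 and 40.2 against 74.4 and 66.5, above them in both. Neither difference passed.

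Other cadherins were almost undetected. Of 10, 7 were at 0 in all 4 libraries, among them CDH3 and CDH11, compared with 43.4% of protein-coding genes. CDH24, a type II cadherin and the single one tested, had 0.130 and 7.98 FPKM in controls against 13.9 and 9.31 in knockouts, a log2 fold change of 2.36 ± 2.41 (SE) with an adjusted p of 0.955 in limma. CDH5 appeared in control 2 alone at 2.72 FPKM, and CDH4 in knockout 2 alone at 0.619. CDH2 and CDH24 were thus the only cadherins of the 12 listed here above 0 in more than 1 library.

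Epithelial genes were split. Of 36, 17 (47.2%) were at 0 in all 4 libraries, a share close to that of protein-coding genes in general, and these included EPCAM, the splicing regulators ESRP1 and ESRP2, and the epithelial factors GRHL2, OVOL1 and OVOL2, which ZEB1 is known to oppose. Other junction genes were well expressed. CLDN1, a tight-junction claudin, had 95.3 and 108 FPKM in controls against 170 and 86.4 in knockouts, and DSP, desmoplakin, had 78.8 and 31.0 against 44.1 and 60.3. LSR, a tricellular-junction receptor, had 39.2 and 11.6 against 2.48 and 49.4. CLDN3 was listed at 0 in both controls and knockout 2 and at 163 FPKM in knockout 1, from 169 reads, the same single-library pattern that ZEB2 had in knockout 2. The median over the 16 tested was 0.48, and −0.20 without knockout 2, where the median of all genes was −0.75.

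Mesenchymal genes held several of the most abundant transcripts. Of 28, 13 were tested, 11 of them with a fitted value above 0 (5525 of 11463 over all genes), and the median was 0.35. VIM, vimentin, had 177 and 172 FPKM in controls against 267 and 372 in knockouts, a log2 fold change of 0.85 ± 0.55 (SE) with an adjusted p of 0.955 in limma. CD44, a hyaluronan receptor, had 344 and 189 against 391 and 223, with each group holding a high and a low library. TPM1, a tropomyosin, had 224 and 430 against 442 and 445, and TPM2 had 203 and 108 against 107 and 216. Groups did not overlap for 5 of the 13, all with the knockout higher (12.1% over all genes). They were VIM, TPM1, CALD1, LOXL2 and THBS1, the last 3 named after their values were seen, and none passed. Of the 28, 7 (25%) were at 0 in all 4 libraries, against 43.4% of protein-coding genes. These included the smooth-muscle and fibroblast genes ACTA2, CNN1, POSTN and THY1. In contrast, 9 of the 28, CALD1 among them, were above 0 in every library.

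**Figure D3:**
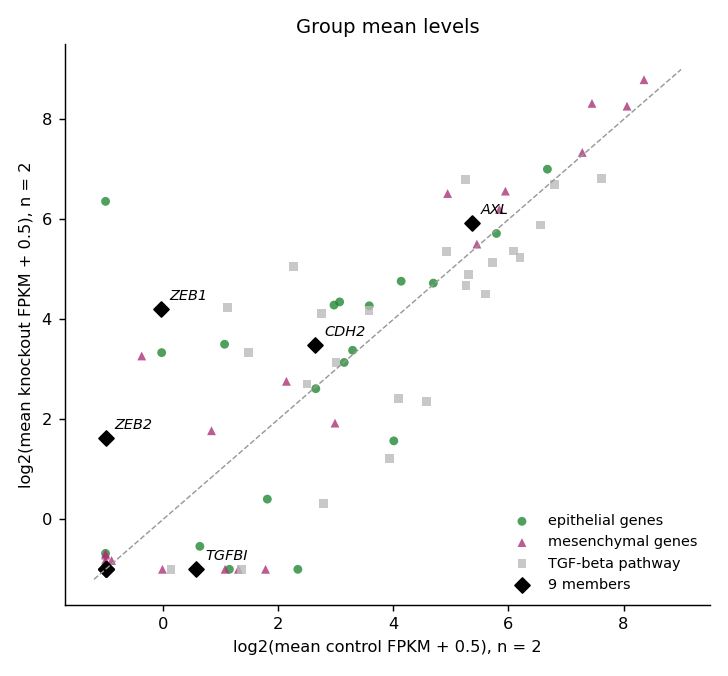
Mean FPKM of the 2 controls (horizontal) and of the 2 knockouts (vertical), both as log2(mean + 0.5), for epithelial genes (green circles), mesenchymal genes (purple triangles), TGF-beta pathway genes (grey squares) and the 9 members (black diamonds), with the line of equal levels dashed. AXL lies near the line among the abundant genes, ZEB1 lies above it, and SNAI1, SNAI2, TWIST1 and CDH1 share the lower left corner at 0.

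TGF-beta pathway genes had 23 of 28 tested and a median log2 fold change of −0.68. The median was −0.31 without control 1 and −0.14 without knockout 1. Without overlap, 4 of the 23 lay higher and 7 lower in the knockout, against 12.1% and 14.4% of all genes. LTBP2, a latent TGF-beta binding protein family gene, had 105 and 116 FPKM in controls against 107 and 100.2 in knockouts. CCN1, a matricellular target, had 140 and 253 against 54.3 and 170. SMAD3, a signal transducer of the pathway, had 85.5 and 102 against 51.5 and 66.1, and SMURF2, a ubiquitin ligase that restrains it, had 48.7 and 26.8 against 169 and 53.6. SMAD3 lay below the controls in both knockouts and SMURF2 above, and neither passed. Of the 3 ligand genes, TGFB2 and TGFB3 were at 0 in all libraries.

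RNA-binding proteins that act on EMT messages, the IGF2BP family among them, had 11 of 12 genes tested and a median of −0.11. HNRNPM, a splicing regulator, had 405 and 510 FPKM in controls against 292 and 467 in knockouts, YBX1 had 361 and 378 against 347 and 432, and PTBP1 had 145 and 112 against 216 and 173. IGF2BP2, the paralog of IGF2BP3, had 43.4 and 99.3 against 37.4 and 86.8. Replicate differences were as large as group differences for HNRNPM and IGF2BP2.

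**Figure D4:**
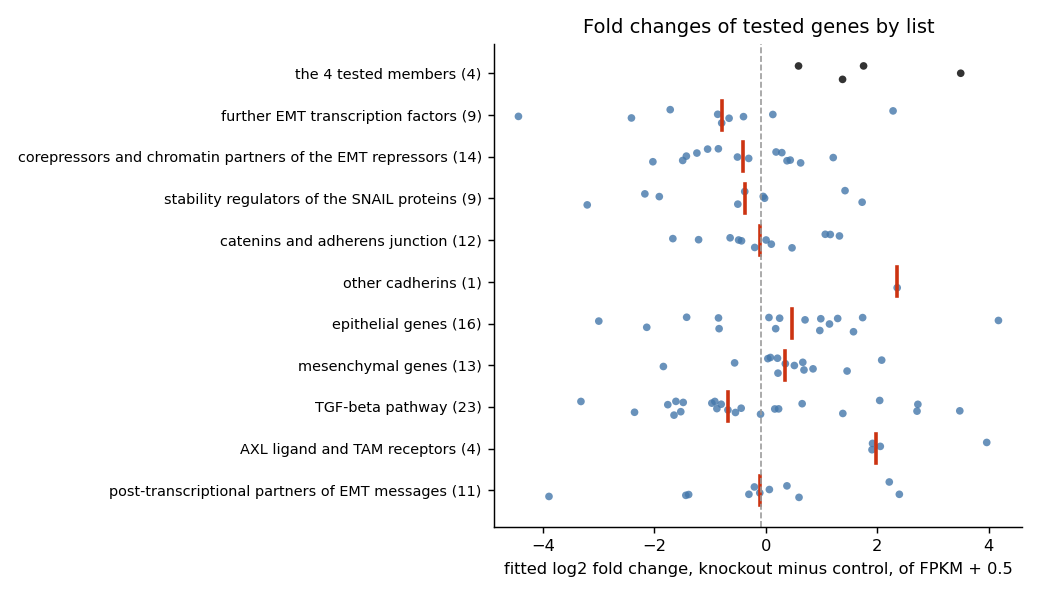
Fitted log2 fold change (knockout minus control, log2(FPKM + 0.5)) of each tested gene, by list, with the number tested in brackets. Black points are the 4 tested members, red bars are list medians and the dashed line is the median of all genes, −0.08; the 4 genes beside AXL (AXL ligand and TAM receptors) lie to the right of it, and none of the points shown passed the adjusted test.

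For each tested member, the gene of these lists with the nearest profile over the 4 libraries (Euclidean distance of log2(FPKM + 0.5)) was found among 179 candidates. AXL was nearest to VCL, at a distance of 0.49. The distances for the other members were larger. ZEB1 was nearest to TGIF1, a TGF-beta corepressor gene with 0 and 3.35 FPKM in controls against 28.9 and 7.72 in knockouts (distance 2.16). CDH2 was nearest to TGFBR1, the type I receptor, with 0.497 and 4.10 against 14.6 and 4.70 (2.24), and ZEB2 to COL6A1, with 0.546 and 0 against 0 and 18.3 (2.02). Over 4 libraries such likeness is a description, and these genes share the same libraries and depths.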

How the data were processed

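PolyA RNA-seq of 4 T24 libraries was used. Per the file names, the authors ran HTSeq counting and deposited FPKM, 1 table per library. The same names label each library as input. Genome build hg38 is named in the submitters' processing notes. For the aligner, annotation release and strand setting, nothing is stated in the sources used here. Names were found for the Ensembl IDs in a table of gene symbols, and positions, classes and longest transcript lengths came from GENCODE 29. FPKM times length fell on whole multiples of 1 read for 96.4 to 96.5% of genes above 0 (tolerance 0.0001), which gave the reads quoted. Such reads are not independent molecules, and removal of amplified copies is not stated. The knockout and control groups were compared on log2(FPKM + 0.5), for genes averaging at least 1 FPKM, with limma 3.58.1 in R 4.3.3 (lmFit and trended eBayes), two-sided, Benjamini-Hochberg adjusted over all 11463 genes, threshold 0.05. The pseudocount understates changes of low genes. The prior degrees of freedom were infinite, so a gene's own replicate spread had no weight. The fit was tested on simulated reads with a preset spread between replicates, not that of these libraries. That test does not show how the fit performs at the spread seen here. Leaving out a library recomputed the filter. Members and lists were chosen with earlier results of these data known. From each list the 4 genes of highest mean above 0 were named, with any past the threshold, all 9 members, and the gene of nearest profile to each tested member; genes named outside that rule stand as counts of zeros or non-overlapping groups, or as a single-library or unadjusted result, and were chosen after their values were seen. A gene taken by that rule is left out of the text. Python 3.11.15 and matplotlib 3.10.9 were used.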

Additional observations from a re-analysis of the deposited data

How the results depend on the processing

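Across 15 alternatives (pseudocount, filter, scaling, moderation, replicate block, each library left out, protein-coding genes, and limma-voom on recovered reads) the count of members past the threshold stayed at 0, as did that of list genes. AXL stayed between 0.52 and 0.73 on the log2 scale in the alternatives that kept 4 libraries and between 0.30 and 0.88 with 1 left out. ZEB1 lay between 2.92 and 5.03, and between 1.66 and 5.34 with 1 left out. ZEB2 lay between 1.32 and 4.56, and between 1.76 and 3.52 with 1 left out, and it has no value without knockout 2. CDH2 lay between 1.03 and 2.65, but between −0.91 and 3.67 with 1 left out, reversed at −0.91 without control 1 and at −0.30 without knockout 1. The replicate block cannot change a fold change in this balanced design, and CDH2 stayed at 1.38 and AXL at 0.59. The filter, moderation and protein-coding settings also cannot change that of a tested gene. The ranges above thus rest on pseudocount, scaling, limma-voom and each library left out. Across genes, the deviations of same-numbered libraries had a correlation of −0.004. With 2 pairs and many listed zeros, this cannot show whether the numbers pair the libraries. Median centring moved the median of all genes by 0.14 and limma-voom by 0.12; leaving out a library moved it by −0.67 to 0.56. With 1 library left out, list medians crossed 0 for corepressors (−1.08 to 0.30), SNAIL stability regulators (−1.21 to 0.10), catenins (−0.18 to 0.25), epithelial genes (−0.20 to 0.44) and RNA-binding proteins (−0.64 to 0.22), and kept their sign for the other 5 lists. With each library left out 0 genes of the whole table passed. Where a member was at 0 reads, the levels given are limits of counting error. Neither they nor the counting intervals cover the wider spread between replicates.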
